A study of Mus musculus with 18 samples.

Results

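Hcar2, Gpr84, P2ry6, P2rx4, P2rx7, Ptafr, Rgs1 and Hpgds are 8 of the 48440 genes in a table of RNA levels of mouse brain: 6 receptors for metabolites, nucleotides or a lipid mediator, a regulator of receptor signalling and a prostaglandin enzyme. The rows were found by gene symbol, and each symbol occurs once. The genes were chosen from their levels in these same libraries, above all from the comparison of 5xFAD with WT, so their levels against WT are given as a description, without p-values, and counts of calls there are only set beside the share of all genes. The study holds 18 libraries of poly(A)-selected brain RNA in 3 groups of 6, which are WT mice fed control diet, 5xFAD mice fed that same diet, and 5xFAD mice fed fucose, a sugar of glycoproteins. Every group was on its diet for 1 month, and fucose was not given to WT mice among these samples. 5xFAD is a mouse model of Alzheimer's disease in which mutant human transgenes are driven by the Thy1 promoter, which is active in neurons. The labels give neither age, sex nor brain region, and do not say whether each library is a separate animal, so the p-values below measure the spread between libraries, which may be technical.

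Small molecules released by damaged or active tissue are read by receptors on microglia, the resident macrophages of the brain. Hcar2 encodes a G protein-coupled receptor for beta-hydroxybutyrate and niacin, and Gpr84 one for medium-chain fatty acids; both couple to inhibitory G proteins. P2X receptors are ion channels opened by extracellular ATP, whereas P2Y receptors are G protein-coupled, and P2ry6, whose ligand is UDP, is known for its part in microglial phagocytosis. Ptafr encodes the receptor for platelet-activating factor. Rgs1 encodes a protein that shortens G protein signalling, and Hpgds the hematopoietic synthase of prostaglandin D2.

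Between 31449637 and 44231899 reads were counted per library, so that 1 read was worth 0.886 to 1.24 normalized counts and 0 reads leave room for up to 2.66 to 3.72 normalized counts, counting error alone considered. Thy1 reads, which can include those of transgene transcripts, ran from 40379 to 58895 normalized counts in WT and from 103235 to 158017 in all 5xFAD libraries, without overlap. 5xFAD fucose replicate 1 stood apart from the other 5xFAD libraries. Its Thy1 level of 134523 lay within the 5xFAD range. Its mean over 10 markers of microglia and macrophages was 9.65 on the log2 scale, against 10.19 to 10.79 in the other 11 5xFAD libraries and 8.95 to 9.43 in WT. Its summed level was the highest of its group for 6 perivascular macrophage markers (779 normalized counts, group median 462) and 6 neutrophil markers (179, group median 45.1), and for 5 monocyte markers (582, group median 488). The monocyte sum mainly follows Vcan, with a group median of 466. Ccr2, Ly6c2, Plac8 and Chil3 had group medians of 2.09, 9.51, 4.34 and 5.65. For 6 homeostatic microglia markers 5xFAD fucose replicate 1 summed to 5320, the lowest of its group and just below the WT range of 5330 to 6860. The part of these differences in the results was not tested, and the diet differences and correlations of the members are given with and without this library.

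RefSeq promoter windows (GRCm38.p6, the assembly of mm10) of 250 bases before to 50 after the start were matched for 5 of the 8 genes. 4 of them are shown to set Hpgds, Ptafr and Gpr84, which differed by over 2-fold between 5xFAD and WT, beside P2rx4, which did not. Capitals mark GAGGAA, the core bound by the myeloid factor PU.1, on either strand, and TGANTCA, the AP-1 motif, which has no match in these 4 windows.
Hpgds, chr6:65144681-65144980, minus strand: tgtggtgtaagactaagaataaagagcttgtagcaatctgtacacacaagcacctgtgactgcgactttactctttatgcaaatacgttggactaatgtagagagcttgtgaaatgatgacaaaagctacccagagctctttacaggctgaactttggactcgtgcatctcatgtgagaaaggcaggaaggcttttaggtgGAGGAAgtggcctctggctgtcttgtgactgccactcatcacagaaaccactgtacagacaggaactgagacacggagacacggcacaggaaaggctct
Ptafr, chr4:132563817-132564116, plus strand: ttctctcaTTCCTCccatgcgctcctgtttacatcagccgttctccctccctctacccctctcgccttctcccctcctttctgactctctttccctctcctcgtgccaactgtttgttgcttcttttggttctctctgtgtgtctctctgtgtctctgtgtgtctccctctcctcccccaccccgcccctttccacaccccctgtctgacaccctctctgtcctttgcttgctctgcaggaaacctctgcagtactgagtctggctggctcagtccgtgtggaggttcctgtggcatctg
Gpr84, chr15:103310389-103310688, minus strand: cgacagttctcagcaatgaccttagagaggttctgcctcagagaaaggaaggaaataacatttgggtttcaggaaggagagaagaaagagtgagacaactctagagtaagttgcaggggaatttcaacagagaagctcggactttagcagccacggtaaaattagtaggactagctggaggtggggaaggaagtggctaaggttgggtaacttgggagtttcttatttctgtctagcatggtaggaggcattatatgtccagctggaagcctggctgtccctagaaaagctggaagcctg
P2rx4, chr5:122707294-122707593, plus strand: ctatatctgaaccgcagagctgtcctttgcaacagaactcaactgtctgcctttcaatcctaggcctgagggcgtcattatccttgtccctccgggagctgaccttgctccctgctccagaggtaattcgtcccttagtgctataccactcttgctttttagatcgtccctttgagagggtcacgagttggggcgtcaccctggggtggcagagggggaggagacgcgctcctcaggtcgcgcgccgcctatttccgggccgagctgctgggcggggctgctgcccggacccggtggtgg
GAGGAA occurred once each in the Hpgds and Ptafr windows and in none of the other 2 shown. P2rx7, which is not shown, did not differ by over 2-fold either. Its first window held 1 GAGGAA and 1 TGANTCA, and its second window 1 GAGGAA. Of 32851 promoter windows of this length 28.3% held GAGGAA and 7.81% TGANTCA. The shorter ETS core GGAA, which lies within every GAGGAA, occurred 8 times in the Gpr84 window, 4 times in that of Hpgds, 5 times in that of Ptafr and once in that of P2rx4, and is present in 96.0% of all windows. A match describes the letters and not a bound site.

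Hcar2 (ENSMUSG00000045502.6, chromosome 5, 123863570 to 123865499, minus strand, mm10) encodes the beta-hydroxybutyrate receptor. In WT it was at 0 normalized counts in the lowest library, 10.1 at the median and 16.1 in the highest. In 5xFAD on control diet the lowest library was at 58.5, the median at 116 and the highest at 155. In 5xFAD on fucose these values were 24.1, 104 and 192. Every 5xFAD library of either diet lay above every WT library, and the lowest of them was 5xFAD fucose replicate 1. The group means were 8.74 ± 5.47 in WT, 113 ± 39.9 in 5xFAD on control diet and 104.7 ± 57.7 in 5xFAD on fucose (SD, n = 6 each). On the log2(normalized count + 1) scale the difference between 5xFAD and WT on control diet was 3.87 ± 0.56 (SE). The size of this value depends on how low counts are treated and ran from 3.15 to 4.11 over the other settings tried without a marker covariate.

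Gpr84 (ENSMUSG00000063234.4, chromosome 15, 103308236 to 103310438, minus strand) encodes the receptor for medium-chain fatty acids. Its WT libraries ran from 48.0 to 115 normalized counts with a median of 75.7. Those of 5xFAD on control diet ran from 190 to 431 with a median of 239, all above WT. On fucose they ran from 82.8 to 324 with a median of 252, and 5xFAD fucose replicate 1, at 82.8, was the only one inside the WT range. The log2 difference between 5xFAD and WT on control diet was 1.76 ± 0.29 (SE). In the GENCODE M21 annotation 39.5% of the exon bases of Gpr84 overlap Gm49482 on the opposite strand. The strand setting of the counting is not given in the sources used here, so reads of such an antisense neighbour could not be told apart.

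**Figure D1:**
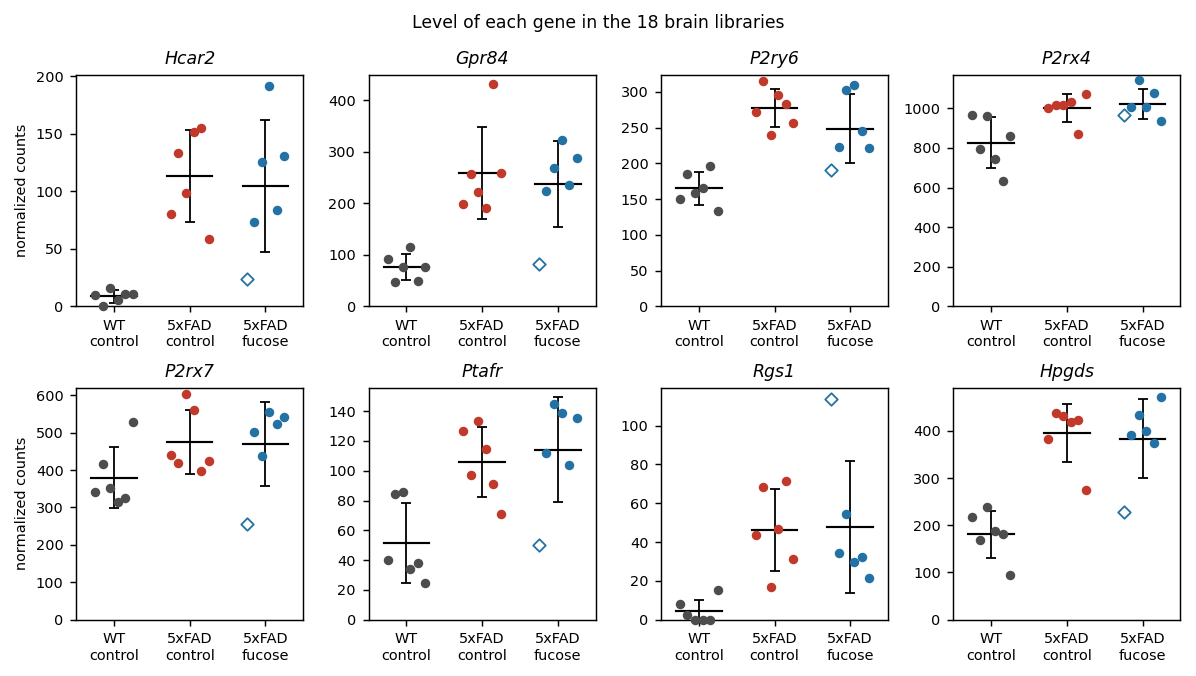
Normalized counts (y axis, linear from 0) of the 8 genes in the 3 groups of 6 libraries; each point is a library, the line is the mean, the bar is the SD, and the open diamond is 5xFAD fucose replicate 1. For Hcar2 and Rgs1 all 12 5xFAD points lie above the WT points, and the diamond is the lowest 5xFAD point for Hcar2 (24.1) and the highest for Rgs1 (114).

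P2ry6 (ENSMUSG00000048779.5, chromosome 7, 100937630 to 100974649, minus strand), the UDP receptor, ran from 134 to 197 normalized counts in WT with a median of 162. In 5xFAD on control diet the range was 240 to 315 with a median of 278, without overlap with WT. On fucose it was 191 to 309 with a median of 234, and only 5xFAD fucose replicate 1, at 191, fell under the highest WT library. The log2 difference between 5xFAD and WT on control diet was 0.75 ± 0.15 (SE), a 1.68-fold difference.

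The ATP-gated channel genes P2rx4 (ENSMUSG00000029470.15, chromosome 5, 122707544 to 122729738, plus strand) and P2rx7 (ENSMUSG00000029468.17, chromosome 5, 122643911 to 122691432, plus strand) are neighbours, 16.11 kb apart and in the same orientation. P2rx4, a channel that is abundant in lysosomes, ran from 635 to 968 normalized counts in WT with a median of 828, from 869 to 1072 in 5xFAD on control diet with a median of 1017, and from 938 to 1145 on fucose with a median of 1006. The groups overlapped, with 5 of 6 control-diet and 4 of 6 fucose-diet 5xFAD libraries above the highest WT library. P2rx7, whose channel opens at high ATP and can start inflammasome signalling, ran from 313 to 528 in WT with a median of 346, from 397 to 603 in 5xFAD on control diet with a median of 432, and from 257 to 556 on fucose with a median of 512. Here 2 of 6 libraries of each 5xFAD group exceeded the highest WT library, and the lowest of all 18 was 5xFAD fucose replicate 1. The log2 differences between 5xFAD and WT on control diet were 0.29 ± 0.097 (SE) for P2rx4 and 0.33 ± 0.17 (SE) for P2rx7, the smallest of the 8.

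Ptafr (ENSMUSG00000056529.7, chromosome 4, 132564067 to 132582683, plus strand) ran from 24.6 to 85.6 normalized counts in WT with a median of 39.2. In 5xFAD on control diet it ran from 70.9 to 133 with a median of 106, and on fucose from 50.1 to 145 with a median of 123. WT was split, with replicates 2 and 3 at 84.6 and 85.6 and the other 4 at 40.4 or less, and 5 of 6 libraries of each 5xFAD group lay above both. The log2 difference on control diet was 1.15 ± 0.31 (SE).

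Rgs1 (ENSMUSG00000026358.13, chromosome 1, 144242296 to 144249242, minus strand) was listed at 0 reads in 3 of 6 WT libraries, and the others had 2, 8 and 16 reads. Its WT maximum was 15.2 normalized counts. In 5xFAD on control diet the lowest library was at 16.8, the median at 45.0 and the highest at 71.6. On fucose these values were 21.5, 33.3 and 114. All 12 5xFAD libraries lay above WT, the lowest of them by only 1 read more than the highest WT library. The ratio of the group means, 46.3 ± 21.2 against 4.22 ± 6.17 (SD, n = 6 each), was 11. The log2 difference was 3.94 ± 0.64 (SE) and ran from 2.58 to 4.48 over the other settings without a marker covariate, since the WT level lies near what a count of 0 allows. In contrast to the other members, Rgs1 was highest in 5xFAD fucose replicate 1.

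Hpgds (ENSMUSG00000029919.5, chromosome 6, 65117293 to 65144908, minus strand) ran from 93.8 to 238 normalized counts in WT with a median of 184. In 5xFAD on control diet it ran from 276 to 439 with a median of 420, above every WT library. On fucose it ran from 228 to 472 with a median of 395, and 5xFAD fucose replicate 1, at 228, was the only one inside the WT range. The log2 difference on control diet was 1.16 ± 0.20 (SE). Hpgds is also a gene of mast cells. The 6 mast cell markers summed to 0 to 13.8 normalized counts in WT. In 5xFAD their sum was 0 to 17.9 on control diet and 0 to 5.78 on fucose. Mcpt4 and Cma1 were at 0 in all 12 control-diet libraries. The highest WT and 5xFAD control-diet libraries were at 11.8 and 10.6 for Cpa3, and 5.40 and 10.4 for Tpsb2. For Ms4a2 these values were 6.20 and 3.7, and for Fcer1a 0 and 5.65. The part of mast cells in the level of Hpgds was not tested.

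The order of the members changed between groups when levels were set per kb of annotated exon, the scale on which genes of different length can be compared. In WT P2rx4 led at 118 ± 18.4 normalized counts per kb (SD, n = 6), followed by P2rx7 (63.6 ± 13.6), P2ry6 (57.1 ± 8.02), Gpr84 (44.1 ± 14.9), Hpgds (28.1 ± 7.73), Ptafr (14.1 ± 7.36), Hcar2 (4.53 ± 2.84) and Rgs1 (0.608 ± 0.888). P2ry6 differed from its neighbours P2rx7 and Gpr84 by less than their SD. In 5xFAD on control diet Gpr84 (150 ± 51.4) and P2rx4 (143 ± 9.85) stood together at the top, P2ry6 (96.1 ± 9.33) and P2rx7 (79.4 ± 14.3) followed, and Hcar2 (58.6 ± 20.7) was level with Hpgds (61.4 ± 9.56), above Ptafr (29.0 ± 6.48) and Rgs1 (6.67 ± 3.05). The exon length used is the union over all annotated transcripts, 1725 bases for Gpr84 and 7025 for P2rx4, and counts transcripts that retain introns in full. For Rgs1 it is 1 block of 6947 bases that covers the whole gene. The M21 coordinates equal those of the deposited table for 7 of the 8 members. Those of Gpr84 differ (103308235 to 103310612 in M21), so its length, and with it its place in this order, may not match what was counted.

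By limma, 6 of the 8 members (Hcar2, Gpr84, P2ry6, Ptafr, Rgs1 and Hpgds) were called higher in 5xFAD than in WT on control diet at an adjusted p under 0.05, beside 1.97% of the 18808 genes tested, and 0 lower, beside 0.165%. P2rx4 and P2rx7 were not called. For 5 members (Hcar2, Gpr84, P2ry6, Rgs1 and Hpgds) every 5xFAD library lay above every WT library, as it did for 1.8% of genes. In 5xFAD on fucose against WT the same 6 members were called higher, beside 1.91% of genes, and 0 lower, beside 0.0904%, while the libraries did not overlap for 2 members (Hcar2 and Rgs1), beside 1.41%. Since these contrasts served to choose the members and share the WT libraries, nothing is read from these counts. The median log2 difference of the members on control diet was 1.15, and that of all genes -0.008. Of the 6 calls on control diet, that of Ptafr lay at the threshold. It was kept when WT replicate 2 or 3, 5xFAD control replicate 6 or 5xFAD fucose replicate 1 was left out and lost without any other 1 library, and it was also lost with edgeR (TMM or RLE), with no filter, without trend and robust moderation and with only the 2 groups in the fit. In 5xFAD on fucose against WT the calls of P2ry6 and Ptafr were likewise lost without 7 and 8 of the 18 libraries, 1 at a time. Whether a call is kept also depends on how the members were chosen, so a kept call is no support for a member.

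The levels of microglial markers differed between the same groups. In bulk tissue, more cells of a type and more RNA per cell cannot be told apart. Of the 10 markers of microglia and macrophages 9 rose in 5xFAD on control diet, with a median log2 difference of 1.09, among them the myeloid factor gene Spi1 (1.25 ± 0.17 SE), which encodes PU.1. Their summed level was 9940 to 12300 normalized counts in WT, 24600 to 30900 in 5xFAD on control diet and 20500 to 33700 on fucose, and no marker was at 0 throughout. Of the 6 homeostatic microglia markers 3 rose, with a median of 0.65. Of the 6 astrocyte markers 1 rose, Gfap, the intermediate filament of reactive astrocytes, with a log2 difference of 2.55 ± 0.14 (SE), and the median was 0.15. The astrocyte markers summed to 84900 to 97600 normalized counts in WT, 147000 to 176000 in 5xFAD on control diet and 134000 to 180000 on fucose, and none was at 0 throughout. The difference in this sum follows Gfap, which averaged 14690 ± 3166 in WT, 85050 ± 12100 in 5xFAD on control diet and 81390 ± 14520 on fucose (SD, n = 6 each). The other 5 astrocyte markers were not called. The part of astrocytes in the members' levels was not tested.

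Each member was also set against the mean of the 10 markers in the same library, as a log2 difference. For Hcar2 this difference was -6.33 ± 1.55 in WT (SD, n = 6) and -3.65 ± 0.49 in 5xFAD on control diet, without overlap. For Rgs1 it was -7.73 ± 1.90 and -4.98 ± 0.64, and WT replicates 1 and 6 lay inside the 5xFAD range. The means of both genes thus differed between the groups by more than the markers did. Rgs1 was at 0 in 3 WT libraries and Hcar2 in 1, so the size of both gaps depends on how low counts are treated. Hpgds (-1.76 ± 0.39 in WT and -1.79 ± 0.31 in 5xFAD on control diet) and Ptafr (-3.65 ± 0.68 and -3.69 ± 0.47) differed from the markers by similar amounts in both groups. Gpr84 ran from -3.66 to -2.56 in WT and from -2.80 to -2.02 in 5xFAD on control diet, with overlap. P2ry6 lay lower against the markers in 5xFAD on control diet, at -2.28 ± 0.20 beside -1.84 ± 0.16 in WT. P2rx4 did so too, at -0.43 ± 0.29 beside 0.47 ± 0.33, and in both cases the libraries did not overlap. P2rx7 was at -0.66 ± 0.41 in WT and -1.52 ± 0.40 in 5xFAD on control diet, with overlap. The marker mean itself was 9.21 ± 0.16 in WT and 10.4 ± 0.2 in 5xFAD on control diet (SD). A gene with the same level in both groups therefore falls on this scale. The share of all genes without overlap on this scale was not counted, so that of Hcar2, P2ry6 and P2rx4 is a description. With the marker mean as a covariate, a fit added after the data were seen, 0 members and 23 of all genes were called on control diet. The log2 differences of the members in that fit were 5.86 for Rgs1, 2.04 for Hcar2, 0.38 for P2rx4, 0.23 for Hpgds, 0.10 for P2ry6, -0.14 for P2rx7, -0.17 for Gpr84 and -0.0016 for Ptafr. The marker means of WT (8.95 to 9.43) and 5xFAD on control diet (10.19 to 10.77) did not overlap, so in that fit marker level and genotype cannot be told apart.

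**Figure D2:**
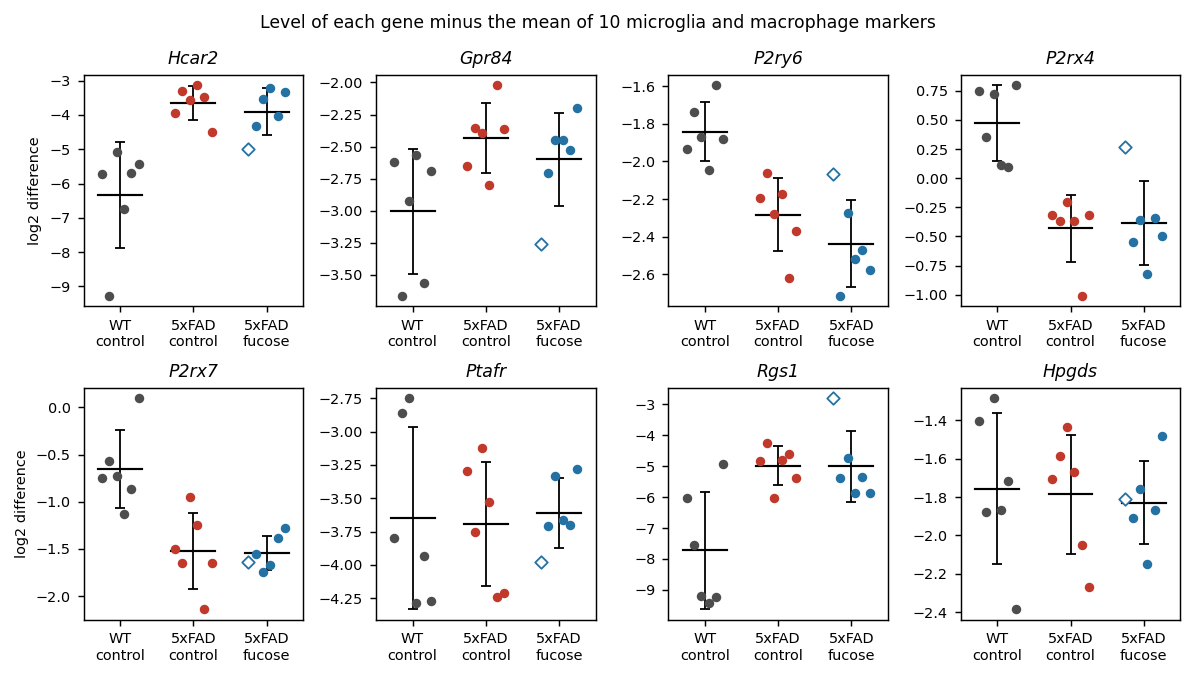
Log2 difference between each gene and the mean of 10 microglia and macrophage markers in the same library (y axis) for the 3 groups; points are libraries, the line is the mean, the bar is the SD and the open diamond is 5xFAD fucose replicate 1. Hcar2 and Rgs1 sit closer to the markers in both 5xFAD groups than in WT, and P2rx4, P2rx7 and P2ry6 sit lower on average. The mean of Gpr84 is higher in both 5xFAD groups, with overlap. A gene with the same level in all groups would also sit lower in 5xFAD, since the marker mean is higher there.

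The second question was whether 1 month of fucose changed these genes in 5xFAD. 0 of the 8 members were called higher or lower on fucose against control diet, as were 0.0% of the 18808 genes tested in either direction by limma, with 1005 genes at an unadjusted p under 0.05. edgeR with TMM, edgeR with RLE and DESeq2 called 0 genes too, with 948, 953 and 1035 at that unadjusted p. No member had libraries that did not overlap between diets, beside 0.0638% of genes higher and 0.122% lower on fucose.

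The intervals show what size of change each gene could still have had. For Hcar2, with means of 113 and 104.7 normalized counts on the control and fucose diets, the log2 difference was -0.27 with a 95% interval from -1.44 to 0.90 (limma adjusted p = 0.948). Gpr84 averaged 259 ± 88.7 and 237 ± 83.6 (SD, n = 6 each), a difference of -0.19 with an interval from -0.78 to 0.41 (limma adjusted p = 0.921). The narrowest interval was that of P2rx4, -0.17 to 0.23 around 0.03 (limma adjusted p = 0.962), which leaves room for a 1.17-fold increase. P2ry6 had -0.17 with an interval from -0.47 to 0.13 (limma adjusted p = 0.846), and P2rx7 -0.04 from -0.40 to 0.32 (limma adjusted p = 0.972).

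Hpgds had -0.06 with an interval from -0.47 to 0.35 (limma adjusted p = 0.962) and Ptafr 0.06 from -0.57 to 0.70 (limma adjusted p = 0.975). For Rgs1 the interval ran from -1.36 to 1.28 around -0.04 (limma adjusted p = 0.992), so that neither a 2-fold rise nor a 2-fold fall lies outside it. The same holds for a 2-fold fall of Hcar2. Without 5xFAD fucose replicate 1 the estimates of Hcar2, Gpr84, P2rx7 and Hpgds turned positive (0.096, 0.093, 0.12 and 0.081), those of P2rx4, P2ry6, Ptafr and Rgs1 were 0.046, -0.10, 0.28 and -0.33, and 0 members were called.

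**Figure D3:**
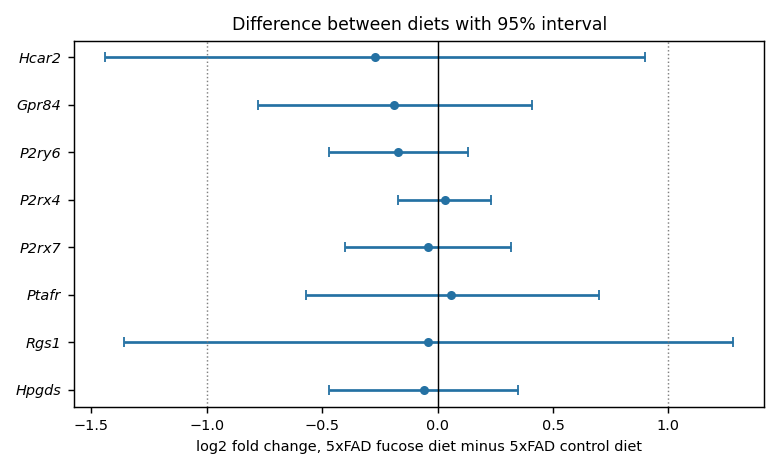
Log2 fold change of each gene on fucose against control diet in 5xFAD (x axis) with its 95% interval from limma; dotted lines mark 2-fold. Every interval includes 0, and those of Hcar2 and Rgs1 pass a dotted line.

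Related genes were read from 7 lists of other receptors, enzymes and RGS proteins, 115 genes of which 102 passed the filter on low counts. In 5xFAD against WT on control diet 10 of them rose and 0 fell, with a median log2 difference of 0.04. Of all 18808 genes tested, 1.97% were called higher and 0.165% lower. At that share a short list would often hold 0 calls, so 0 calls in a list below is not read as a trait of its genes. The other P2X and P2Y receptors did not pass: 0 of 9 tested were called, with P2ry13 at 0.83 ± 0.26 (SE, limma adjusted p = 0.137) and P2ry12, an ADP receptor of homeostatic microglia, at 0.36 ± 0.13 (SE, limma adjusted p = 0.229). Over the 29 alternatives without the marker covariate, P2ry13 was called in 3 and P2ry12 in 2. Of 15 genes of adenosine receptors and nucleotide handling 1 rose. This was Entpd1, the ectonucleotidase CD39 that degrades ATP and ADP, which went from 409 ± 69.2 to 580 ± 36.8 normalized counts (SD, n = 6 each, limma adjusted p = 0.0104).

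Of 9 other metabolite and proton receptors 3 rose. Gpr65, a proton sensor, went from 8.57 ± 4.94 to 67.2 ± 21.7 normalized counts (limma adjusted p = 3.07e-05), with the lowest 5xFAD library at 33.4 and the highest WT library at 15.1. Gpr183, a receptor for oxysterols, went from 57.0 ± 27.6 to 231 ± 84.5 (limma adjusted p = 0.000165), and Gpr34, a lysophosphatidylserine receptor of microglia, from 459 ± 25.9 to 947 ± 135 (limma adjusted p = 0.00205). Gpr34 is also among the homeostatic microglia markers above, as is P2ry12. Hcar1, the lactate receptor and closest listed relative of Hcar2, was at 83.0 ± 35.3 in WT and 55.6 ± 23.9 in 5xFAD and was not called (limma adjusted p = 0.593).

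Of 28 other lipid mediator receptors 3 rose. Cmklr1, a chemerin receptor, went from 131 ± 27.8 to 266 ± 54.1 normalized counts (limma adjusted p = 0.000348) and Cnr2, the cannabinoid receptor of immune cells, from 8.30 ± 7.44 to 46.3 ± 15.6 (limma adjusted p = 0.0018). Lpar6, a receptor for lysophosphatidic acid, passed narrowly at 80.6 ± 27.9 and 135 ± 8.05 (limma adjusted p = 0.0497). Its call was kept without 5 of the 18 libraries, left out 1 at a time, and lost without the other 13. Over the 29 alternatives without the marker covariate, its adjusted p-values from limma, edgeR and DESeq2 ran from 0.015 to 0.122.

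Of 16 tested eicosanoid enzymes besides Hpgds 3 rose. Tbxas1, thromboxane synthase, which uses the same substrate as Hpgds, went from 113 ± 34.6 to 394 ± 67.1 normalized counts (limma adjusted p = 7.24e-06). Hpgd, which inactivates prostaglandins, went from 196 ± 24.5 to 352 ± 65.2 (limma adjusted p = 0.00212). Ptgs1, cyclooxygenase 1, went from 370 ± 96.9 to 540 ± 74.1 (limma adjusted p = 0.0431), a call kept without 8 of the 18 libraries and lost without the other 10. Over the 29 alternatives without the marker covariate, its adjusted p-values from limma, edgeR and DESeq2 ran from 0.00521 to 0.119. Of 7 enzymes that make or degrade platelet-activating factor, the ligand of Ptafr, 0 were called, with Pafah2 at 0.33 ± 0.12 (SE, limma adjusted p = 0.238) and Lpcat2 at 0.32 ± 0.16 (SE, limma adjusted p = 0.45). Of 18 other RGS genes 0 were called, with Rgs8 at -0.38 ± 0.11 (SE, limma adjusted p = 0.0855) and Rgs10, a microglial member of the family, at 0.34 ± 0.11 (SE, limma adjusted p = 0.138). Over the 29 alternatives without the marker covariate, Rgs8 was called lower in 3 and Rgs10 was called in 0. With the marker mean as a covariate 0 of the 102 related genes were called. The log2 differences of Cnr2 (4.08), Gpr65 (3.13) and Cmklr1 (0.93) were then larger than or close to those without it (2.87, 2.97 and 1.01), while those of Gpr34 (0.05), Entpd1 (0.11) and Hpgd (0.12) were smaller (1.03, 0.52 and 0.83 without it). Those of Tbxas1 (1.10), Gpr183 (0.91), Lpar6 (0.64) and Ptgs1 (0.39) lay below their values without it as well (1.83, 2.06, 0.81 and 0.57). The limma adjusted p-values of these 10 genes with the covariate ran from 0.26 (Cnr2) to 0.986 (Gpr34). Marker level and genotype cannot be told apart in that fit, so these sizes are descriptions and do not sort the genes.

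**Figure D4:**
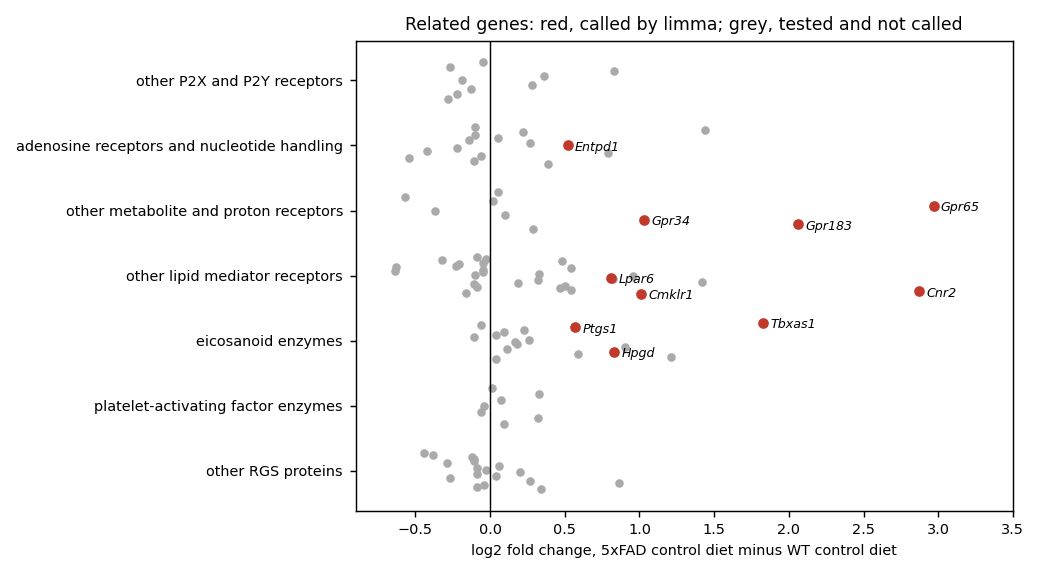
Log2 fold change of the 102 tested related genes in 5xFAD against WT on control diet (x axis), by list (y axis, spread within a list for legibility only). The 10 called genes, in red, are all to the right of 0, and the lists of P2X and P2Y receptors, platelet-activating factor enzymes and RGS proteins hold none. Of all genes tested 1.97% were called higher, so a short list would often hold none.

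Fucose changed 0 of the 102 related genes at an adjusted p under 0.05 by limma, edgeR or DESeq2, with a median log2 difference of -0.02. The 3 with the smallest p-values were Rgs14 at -0.26 ± 0.11 (SE), Lpar3 at -1.44 ± 0.67 (SE) and Hcar1 at -0.70 ± 0.36 (SE), all with a limma adjusted p of 0.822. In 5xFAD on fucose against WT 8 of the 102 rose and 0 fell, beside 1.91% and 0.0904% of all genes tested.

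Among themselves the members varied in different ways over the 12 5xFAD libraries, after each value was centred on its diet group. The 28 pairs had a median Pearson r of 0.44, from -0.85 to 0.88, and 19 were positive. Without 5xFAD fucose replicate 1 the median was 0.16, from -0.74 to 0.69, and 18 were positive. Gpr84 followed the marker mean most closely, with r = 0.93 and Spearman rho = 0.78, and r = 0.78 without the 2 libraries farthest from the median marker mean (5xFAD fucose replicates 1 and 4). Hcar2 had r = 0.82 and rho = 0.67, and r = 0.38 without those 2. P2rx4 had r = -0.03 and rho = -0.14, and r = -0.41 without them. Rgs1 had r = -0.29 and rho = -0.08, and r = 0.61 without them. The sign of r turned without 5xFAD fucose replicate 1 alone for 4 members: from -0.29 to 0.54 for Rgs1, from 0.55 to -0.40 for P2rx7, from 0.59 to -0.23 for Ptafr and from 0.63 to -0.03 for Hpgds. For P2ry6 r was 0.72, and 0.53 without that library. The values of a library share its depth and dissection, and these correlations are descriptions.

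**Figure D5:**
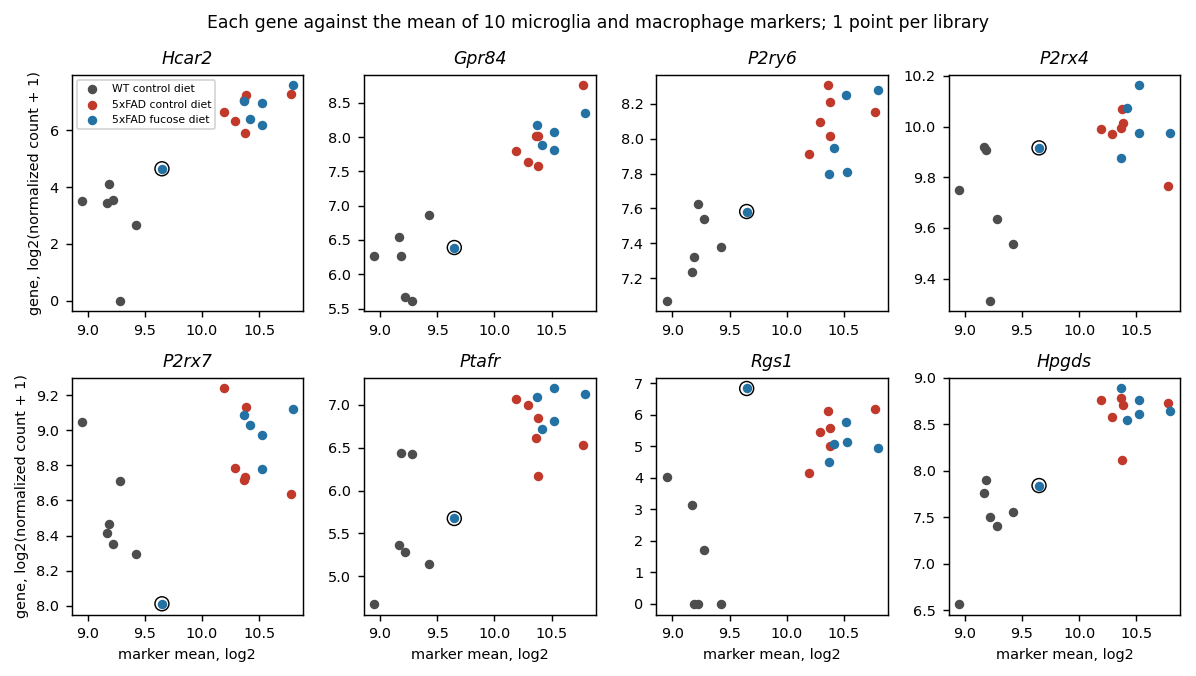
Log2(normalized count + 1) of each gene (y axis) against the mean log2 value of 10 microglia and macrophage markers (x axis), 1 point per library, coloured by group; the circled point is 5xFAD fucose replicate 1. That point lies between the WT and 5xFAD clusters on the x axis (9.65), low on the y axis for Hcar2, Gpr84, P2rx7, Ptafr and Hpgds, and at the top for Rgs1.

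The genes whose centred levels were most like those of a member over the 12 5xFAD libraries were ranked by Pearson r among all tested genes but predicted ones with clone-like symbols. For Hcar2 they were Ccdc112 (r = 0.94, rho = 0.73), Rab7b (r = 0.93, rho = 0.85) and Radil (r = 0.91, rho = 0.80). Gpr84 was closest to Adamts13, Zfp85 and Apbb1ip (each r = 0.94), P2ry6 to Rsu1 (r = 0.93), Ctu2 (r = 0.92) and Siglecf (r = 0.90), and P2rx4 to Ptdss2, Tspan31 and Sf3a1 (r = 0.93, 0.93 and 0.90). P2rx7 was closest to Adam19, Mcam and Car2 (r = 0.92, 0.92 and 0.91), Ptafr to Prox2, Csk and Ctns (r = 0.94, 0.94 and 0.91), and Hpgds to Gab1, Radil and Tmem26 (r = 0.93, 0.92 and 0.91). For Rgs1 the closest were Nfkbia (r = 0.94, rho = 0.92), Slco4a1 (r = 0.91) and Sgk1 (r = 0.89), and without 5xFAD fucose replicate 1 Nfkbia had r = 0.93. Without that library the r of the named genes ran from 0.70 (Car2 with P2rx7) to 0.94 (Rsu1 with P2ry6, and Ptdss2 and Tspan31 with P2rx4). Being the highest of many genes, these values are larger than a gene picked beforehand would give.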

How the data were processed

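Brain RNA of 18 libraries was analysed from 1 deposited table. Its values are normalized counts, a signal that the authors made by dividing the gene counts of a library by 1 size factor: 100% of values came out as whole reads within 0.001 reads, so reads were recovered. The submitters' processing notes name DESeq2 2.11.40.8, featureCounts 2.0.3, HISAT2 2.2.1, Trimmomatic 0.39 and mm10, without roles; neither annotation nor strand setting is given in the sources used here. 2 stray columns were not used. Replicates were not copies of one another (chi-square per degree of freedom 15.95 to 76.12 in 45 pairs).

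Differences were fitted with limma 3.58.1 (R 4.3.3) on log2(normalized count + 1), with trend and robust moderation, in 1 fit of 18 libraries. Fold changes are on this log2 scale, on which a larger pseudocount gives smaller changes of low genes. filterByExpr of edgeR 4.0.16 on recovered reads (minimum count 10) kept 18808 genes, all 8 members among them. Adjusted p-values are Benjamini-Hochberg over these genes, with calls at 0.05. edgeR and DESeq2 1.42.0 on recovered reads were alternatives. limma was tested on simulated data. Gene coordinates are 1-based; GENCODE M21 gave exons. All members, lists, motifs and tests were chosen with earlier results of these data known. The related genes named are up to 5 called genes per list with the smallest p on control diet (otherwise 2), and the 3 smallest p between diets; Hcar1 is named in the genotype comparison as the relative of Hcar2.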

Additional observations from a re-analysis of the deposited data

Results flagged for a closer look

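Within groups of 6 libraries, 7 values of 81 group and gene combinations stood further from the next library than Dixon's 95% limit for 6 samples; about 1 in 20 such groups is marked by chance. Gpr84 was at 431 normalized counts in 5xFAD control replicate 5, where the next library was at 258, and P2rx4 was lowest in that same library, at 869 with the next at 1003. Rgs1 was at 114 in 5xFAD fucose replicate 1, with the next at 54.2. Hpgds was lowest in 5xFAD control replicate 6, at 276 with the next at 383. Among related genes, Gpr34 was at 406 in WT replicate 4, P2ry13 at 194 in 5xFAD fucose replicate 1 and Rgs10 at 1959 in 5xFAD fucose replicate 4.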

How the results depend on the processing

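Called genes, members and related genes were counted under 12 other settings and without each of the 18 libraries. On control diet, 5xFAD against WT gave 402 genes (339 to 455 with 1 library left out), 6 members (5 to 6) and 10 related genes (8 to 13); 5xFAD on fucose against WT gave 376 (276 to 450), 6 (4 to 6) and 8 (7 to 12). DESeq2 gave 562 genes on control diet, 85 of them lower where limma gave 31, and 505 on fucose against WT; with only the 2 groups in the fit, fucose against WT gave 288 genes and 4 members. Fucose against control diet gave 0 genes, members and related genes, and 0 to 0 with a library left out. With no filter on low counts it gave 1 gene, the predicted gene Gm21859 (8.91 normalized counts on control diet, 0 on fucose), chosen after its values were seen. With the marker mean as covariate, chosen after seeing the data, the comparison on control diet gave 23 genes, 0 members and 0 related genes, and that of fucose with WT 64, 0 and 0. Among the members, the log2 differences that changed sign there were those of Gpr84 (-0.17 and -0.33), P2rx7 (-0.14 and -0.17), Ptafr on control diet (-0.0016) and P2ry6 on fucose (-0.06); the cause was not tested. In 5xFAD on fucose against WT the call of P2ry6 was kept without 11 of 18 single libraries and that of Ptafr without 10, a description only, since the members were chosen from these data. Replicate numbers are shared by the groups, and the labels do not say whether they mean pairs or batches. Deviations of same-numbered libraries correlated with r from -0.167 to 0.33, over 0.1 in 4 of 18 pairs. Those of the 90 other pairs ran from -0.211 to 0.223. Of 18 libraries, 8 correlated best with a library of their own number, though only 1 library of each other group shares it. A shared batch was not tested, and the main fit does not use the numbers. With a replicate block 439, 0 and 412 genes, 6, 0 and 6 members and 9, 0 and 8 related genes were called. Low reads limit Rgs1 and Hcar2 in WT most.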
